A study of Rattus norvegicus with 42 samples.

Results

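Glycogen, the glucose store of the liver, is built and broken down by a small set of enzymes, and 7 of their genes were followed through glucocorticoid receptor (GR) binding, transcribing RNA polymerase II and RNA. The members were Gys2, Gbe1, Ugp2, Pgm1, Ppp1r3b, Ppp1r3c and Pygl, chosen by name for their place in the pathway. That choice was made with earlier results of these data known. They are 7 of 26258 gene names in the polymerase data. Each had 1 row in the RNA counts, so 7 of 22929 RNA rows were theirs. In the polymerase data they had 18 of 60999 regions, which cover 11 distinct intervals because gene and transcript entries repeat the same interval. Within 50 kb of a transcription start site (TSS) of a member lay 10 of 3981 GR regions, 6 of them near Ppp1r3b, 3 near Ppp1r3c and 1 near Ugp2. Gys2, Gbe1, Pgm1 and Pygl had no GR region in that window.

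All groups came from livers of adrenalectomised male Sprague Dawley rats, which make no adrenal corticosterone (CORT) of their own. The intravenous infusion followed a 3 h schedule, and livers were taken 140 or 180 min into it. CORT or vehicle (VEH) was infused constantly (CONS) or in pulses of 20 min each hour (PULS). The chromatin groups were PEAK_140 (pulsatile CORT at 140 min, a pulse peak), NADIR_180 (pulsatile CORT at 180 min, a trough), CONS_140 and CONS_180 (constant CORT at those times) and VEH. Each held 2 libraries per antibody, each pooling 6 rats. The VEH libraries were pulsatile vehicle only, 1 from each time, and constant CORT at the chromatin level therefore had no vehicle of its own pattern. Every chromatin comparison against VEH used the same 2 VEH libraries. The RNA groups were PULS_CORT, CONS_CORT, PULS_VEH and CONS_VEH, with 3 libraries each, all taken at 180 min. All rats had received dexamethasone, a synthetic glucocorticoid, at surgery and CORT in their drinking water during recovery, and the CORT was withdrawn before infusion, so that the vehicle groups are not livers that had never met the hormone. The age of the rats is not given in the sources used here. The sources do not say whether the RNA libraries are separate animals, and p-values measure the spread between these libraries only.

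Pgm1, a phosphoglucomutase, turns glucose 6-phosphate into glucose 1-phosphate. From that and uridine triphosphate (UTP), Ugp2 makes UDP-glucose, the sugar donor for glycogen. Gys2, the liver glycogen synthase, adds that sugar to a growing chain, Gbe1 makes the branches, and Pygl, the liver glycogen phosphorylase, releases glucose 1-phosphate again. Ppp1r3b and Ppp1r3c encode subunits that bring protein phosphatase 1 to the glycogen particle, where dephosphorylation switches the synthase on and the phosphorylase off. Glucocorticoids are named for raising blood glucose and have long been known to promote storage of glycogen in the liver, and GR, their receptor, acts as a hormone-dependent transcription factor.

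RefSeq promoter entries matched 6 of the 7 genes (all but Ppp1r3b), and the 250 bases before the start are shown for Ppp1r3c, Gbe1 and Ugp2, whose RNA differed between constant CORT and its vehicle, and for Gys2, the synthase. They were taken from assembly GRCr8, a later build than the rn6 coordinates of the data. In GRCr8 the windows are chr1:243878528-243878777 on the minus strand for Ppp1r3c, chr11:22181026-22181275 on the plus strand for Gbe1, chr14:99698003-99698252 on the minus strand for Ugp2 and chr4:177137237-177137486 on the minus strand for Gys2. Capitals mark matches to the 4 motifs searched on both strands.
Ppp1r3c: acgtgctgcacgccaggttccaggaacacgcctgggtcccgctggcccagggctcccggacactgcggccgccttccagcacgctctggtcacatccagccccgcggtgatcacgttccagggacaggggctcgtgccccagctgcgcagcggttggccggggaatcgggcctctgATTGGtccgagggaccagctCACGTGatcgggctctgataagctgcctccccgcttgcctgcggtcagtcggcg
Gbe1: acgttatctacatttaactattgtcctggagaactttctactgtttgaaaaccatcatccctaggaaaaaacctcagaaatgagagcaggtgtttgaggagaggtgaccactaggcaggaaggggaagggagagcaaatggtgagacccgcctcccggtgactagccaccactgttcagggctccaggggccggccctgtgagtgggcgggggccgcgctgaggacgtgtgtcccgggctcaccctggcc
Ugp2: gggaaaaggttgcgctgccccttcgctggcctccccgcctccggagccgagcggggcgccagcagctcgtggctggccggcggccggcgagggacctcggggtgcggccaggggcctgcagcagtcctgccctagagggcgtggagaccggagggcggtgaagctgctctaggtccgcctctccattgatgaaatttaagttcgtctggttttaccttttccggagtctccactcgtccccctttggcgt
Gys2: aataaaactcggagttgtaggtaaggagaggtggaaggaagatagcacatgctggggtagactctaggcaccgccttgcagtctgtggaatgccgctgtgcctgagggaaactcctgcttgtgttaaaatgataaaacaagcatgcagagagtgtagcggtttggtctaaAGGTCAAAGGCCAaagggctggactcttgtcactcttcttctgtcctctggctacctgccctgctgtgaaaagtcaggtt
The palindrome of a glucocorticoid response element, GNACA, any 3 bases and TGTNC, had no match in the 6 windows, and 0.373% of all 33469 promoter windows of this length held one. The E-box CACGTG was found in Ppp1r3c at 54 to 49 bases before the start, and 5.59% of all windows held it. CCAAT stood on the minus strand of Ppp1r3c (printed as ATTGG) and of Pgm1, and 34% of all windows held it. A direct repeat of AGGNCA with any 1 base between the copies, of the kind bound by nuclear receptors such as HNF4A, was found in Gys2 at 80 to 68 bases before the start, against 0.368% of all windows. These matches describe the letters only. GR regions carry rn6 coordinates, and their sequence was not read because no genome of that build was used here.

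RNA libraries held 3956379 to 7777219 reads, polymerase libraries 4938473 to 9326927 tags and GR libraries 2051977 to 6715803 tags. The known glucocorticoid targets Fkbp5, Per1, Tat and Tsc22d3 were called higher with CORT in both RNA patterns, by 2.66-fold to 6.69-fold in PULS and by 3.54-fold to 8.72-fold in CONS. Summed levels of 7 hepatocyte markers were 102000 to 153000 CPM (read counts scaled to a common library size) over the 12 RNA libraries. One of these markers, Cps1, was itself called higher with CORT, by 1.96-fold in PULS and 2.27-fold in CONS. Markers of other cells summed to 280 to 515 CPM for 6 Kupffer cell genes, 241 to 339 CPM for 4 measured endothelial genes and 323 to 531 CPM for 5 stellate cell genes. Cholangiocyte genes summed to 7.69 to 14.6 CPM with Krt19 at 0, leukocyte genes to 36.5 to 76.7 CPM and muscle genes to 0.497 to 1.7 CPM with Mb at 0. In these bulk samples fewer cells of a type and less RNA per cell cannot be told apart.

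In RNA, constant CORT went with more Ppp1r3c and less Gbe1 and Ugp2 than constant vehicle, and no member was called between pulsatile CORT and pulsatile vehicle. Called means an adjusted p below 0.05 and a difference of more than 1.5-fold. For constant CORT against constant vehicle, 3 of the 7 members were called, 1 higher and 2 lower, where 9.2% of the 14092 genes tested were called (4.45% higher and 4.75% lower). The median of the 7 log2 fold changes was -0.50, against -0.01 over all genes tested. A further 3 members, Gys2, Pygl and Pgm1, had an adjusted p below 0.05 and lay lower by less than 1.5-fold. The share of 9.2% does not apply to them, because it includes the fold limit. The share of all genes with an adjusted p below 0.05 at any fold change was not counted, so these 3 have no background beside them. At an unadjusted p below 0.05 in edgeR there were 6 of the 7 members and 3564 of the 14092 genes. In the same comparison summed stellate cell markers were at 323 to 354 CPM in CONS_CORT and 353 to 460 CPM in CONS_VEH, with the stellate gene Dcn called the other way, at 5.91 to 12.4 CPM in CONS_CORT and 3.08 to 5.07 CPM in CONS_VEH (2.23-fold, adjusted p = 0.0359). Leukocyte markers were at 36.5 to 50.8 and 48.5 to 76.7 CPM. Hepatocyte markers were at 140000 to 150000 CPM in CONS_CORT and 102000 to 145000 CPM in CONS_VEH. The part of these cell types in the member differences was not tested. For pulsatile CORT against pulsatile vehicle, 0 of the 7 members were called by edgeR or DESeq2, where 4.23% of all genes were called. There, 3 of the 7 members and 2793 of the 14092 genes had an unadjusted p below 0.05 in edgeR. The median over the members was 0.11, against -0.01 over all genes.

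**Figure D1:**
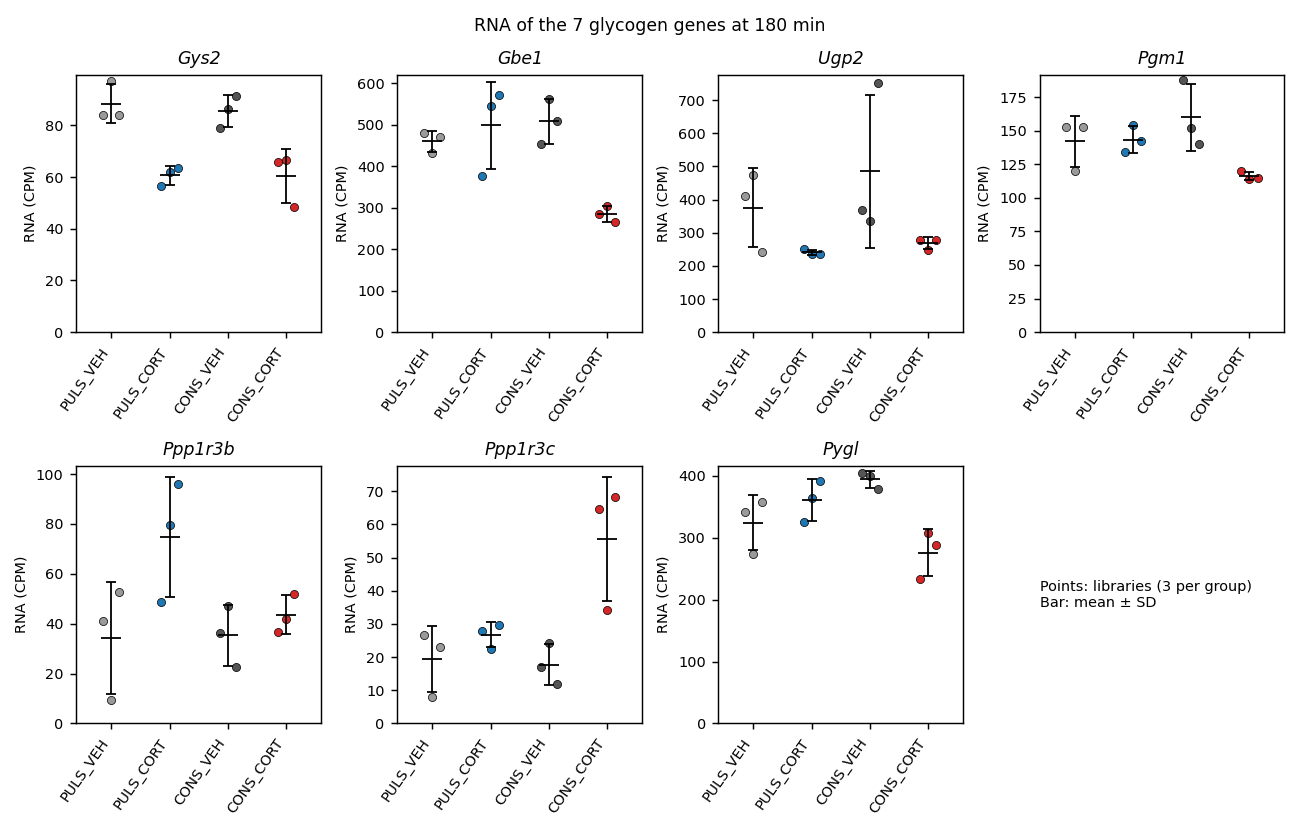
RNA level (CPM, linear axis from 0) of each of the 7 glycogen genes in the 12 RNA libraries, by group. Points are libraries and bars the mean ± SD of 3 libraries. Ppp1r3c lies at 34.2 to 68.2 CPM in CONS_CORT and at 29.8 CPM or less in every other group, and Gbe1 lies at 266 to 305 CPM in CONS_CORT and at 377 CPM or more elsewhere.

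Ppp1r3c (ENSRNOG00000018494), 1 of the phosphatase subunits, was measured at 64.6, 34.2 and 68.2 CPM in CONS_CORT and at 16.9, 24.2 and 11.9 CPM in CONS_VEH. It stood at 27.9, 22.5 and 29.8 CPM in PULS_CORT and at 26.8, 8.12 and 23.2 CPM in PULS_VEH. All 3 CONS_CORT libraries were higher than all 9 others, whereas PULS_CORT overlapped PULS_VEH. With constant CORT it rose 3.16-fold (log2 fold change 1.66 ± 0.33 SE, adjusted p = 0.00291, n = 3 per group), and this call was kept with any 1 of the 12 RNA libraries left out. With pulsatile CORT the log2 difference was 0.47 ± 0.35 (adjusted p = 0.502), and 0.10 (adjusted p = 0.923) without PULS_VEH replicate 2, the lowest library. Constant against pulsatile CORT gave 1.05 ± 0.32 (adjusted p = 0.171). These values rest on 43 to 381 reads per library.

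Ppp1r3b (ENSRNOG00000011474), the other phosphatase subunit, had its highest mean in PULS_CORT. It was measured at 48.7, 79.4 and 96.2 CPM in PULS_CORT and at 41.1, 9.44 and 52.7 CPM in PULS_VEH. In CONS_CORT it stood at 36.6, 42.1 and 52.1 CPM, and in CONS_VEH at 36.3, 47.2 and 22.8 CPM. The CORT and vehicle libraries overlapped in both patterns. The pulsatile difference was 1.12 ± 0.40 on the log2 scale (2.17-fold, adjusted p = 0.118) and did not pass the test, and without PULS_VEH replicate 2 it was 0.67 (adjusted p = 0.231). The constant difference was 0.31 ± 0.40 (adjusted p = 0.697). The test of the difference between the responses gave -0.81 ± 0.56 (adjusted p = 0.584), so the patterns were not separated beyond the spread. PULS_VEH replicate 2 was the lowest library for both phosphatase subunits.

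Gbe1 (ENSRNOG00000051232), the branching enzyme, was measured at 284, 305 and 266 CPM in CONS_CORT and at 453, 563 and 508 CPM in CONS_VEH. It stood at 377, 546 and 572 CPM in PULS_CORT and at 479, 431 and 471 CPM in PULS_VEH. The CONS_CORT libraries were the 3 lowest of the 12. With constant CORT it fell 1.78-fold (-0.83 ± 0.15, adjusted p = 0.0011, n = 3 per group), a call that was kept with any 1 library left out. It was also called between the CORT patterns, 1.75-fold lower in CONS_CORT than in PULS_CORT (-0.80 ± 0.15, adjusted p = 0.0146). That comparison called 1 of the 7 members, where 0.887% of all genes were called (0.27% lower). This call was lost without CONS_CORT replicate 1 (adjusted p = 0.0786) or 3 (adjusted p = 0.0646) and without PULS_CORT replicate 2 (adjusted p = 0.104) or 3 (adjusted p = 0.0856). With pulsatile CORT the difference from vehicle was 0.11 ± 0.15 (adjusted p = 0.728).

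Ugp2 (ENSRNOG00000008079), the maker of UDP-glucose, was measured at 279, 248 and 279 CPM in CONS_CORT and at 367, 336 and 751 CPM in CONS_VEH. It stood at 250, 236 and 237 CPM in PULS_CORT and at 410, 475 and 242 CPM in PULS_VEH. The vehicle groups were wide, with CONS_VEH replicate 3 far above the rest and PULS_VEH replicate 3 inside the range of PULS_CORT. With constant CORT it fell 1.81-fold (-0.85 ± 0.26, adjusted p = 0.0389), but without CONS_VEH replicate 3 the value was -0.39 (adjusted p = 0.276). Leaving out any of the CONS_CORT libraries, or PULS_CORT replicate 2 (adjusted p = 0.0527) or 3 (adjusted p = 0.0522), also ended the call. With pulsatile CORT it lay 1.56-fold lower (-0.64 ± 0.26, adjusted p = 0.169), which did not pass the test.

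Gys2 (ENSRNOG00000059753), the synthase, lay lower with CORT in both patterns by about the same amount. It was measured at 56.6, 62.1 and 63.6 CPM in PULS_CORT and at 84.1, 97.2 and 84.0 CPM in PULS_VEH. In CONS_CORT it stood at 66.0, 66.6 and 48.4 CPM, and in CONS_VEH at 79.0, 86.2 and 91.2 CPM. Every CORT library was below every vehicle library. The difference was 1.46-fold for PULS (-0.54 ± 0.13, adjusted p = 0.0236) and 1.41-fold for CONS (-0.50 ± 0.13, adjusted p = 0.0163), both under the 1.5-fold required for a call. The PULS difference had an adjusted p of 0.0693 to 0.0954 without PULS_CORT replicate 1 or 2 or PULS_VEH replicate 2. The CONS difference was -0.35 (adjusted p = 0.102) without CONS_CORT replicate 3 and -0.45 (adjusted p = 0.0668) without CONS_VEH replicate 3. The responses to the patterns differed by 0.04 ± 0.18 (adjusted p = 0.956). It was the only member whose PULS_CORT and PULS_VEH libraries did not overlap. The share of all genes that separate in this way was not counted.

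Pygl (ENSRNOG00000006388), the phosphorylase, was measured at 233, 307 and 288 CPM in CONS_CORT and at 404, 399 and 379 CPM in CONS_VEH. It stood at 325, 364 and 392 CPM in PULS_CORT and at 341, 274 and 358 CPM in PULS_VEH. The CONS_CORT libraries lay below those of CONS_VEH and of PULS_CORT. The difference from vehicle was 1.43-fold with constant CORT (-0.51 ± 0.13, adjusted p = 0.0173), under the 1.5-fold required, and 0.15 on the log2 scale (adjusted p = 0.582) with pulsatile CORT. Without CONS_CORT replicate 2 the constant difference passed both limits (-0.59, adjusted p = 0.0182), and without CONS_CORT replicate 1 it passed neither (-0.40, adjusted p = 0.0978).

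Pgm1 (ENSRNOG00000009889), the phosphoglucomutase, was measured at 120, 114 and 115 CPM in CONS_CORT and at 188, 152 and 140 CPM in CONS_VEH. It stood at 134, 154 and 142 CPM in PULS_CORT and at 153, 120 and 153 CPM in PULS_VEH. As for Pygl, the CONS_CORT libraries lay below those of CONS_VEH and PULS_CORT without overlap. The difference from vehicle was 1.38-fold with constant CORT (-0.46 ± 0.13, adjusted p = 0.0288), under the 1.5-fold required, and 0.01 on the log2 scale (adjusted p = 0.977) with pulsatile CORT. The constant difference had an adjusted p of 0.067 to 0.096 without any 1 of the CONS_CORT libraries, and was -0.32 (adjusted p = 0.12) without CONS_VEH replicate 1.

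**Figure D2:**
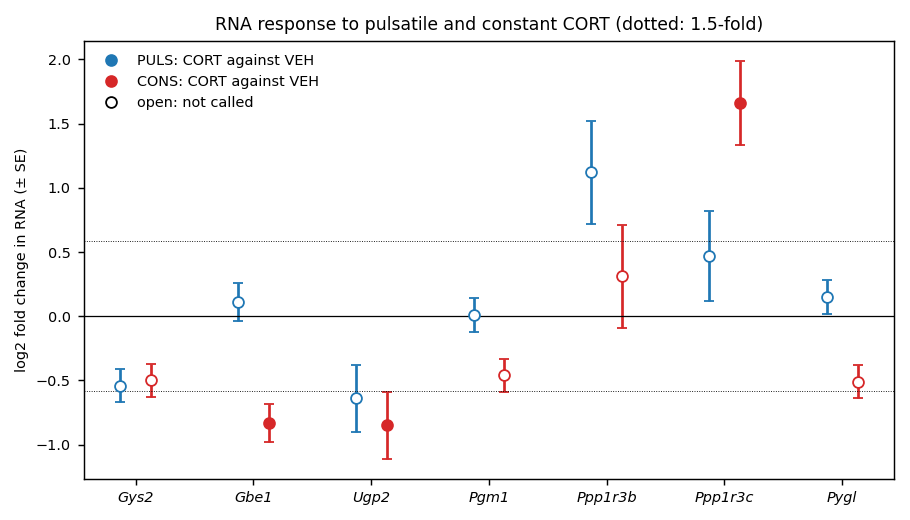
Log2 fold change in RNA of CORT against vehicle (± SE, n = 3 per group) for the 7 glycogen genes, for the pulsatile and the constant pattern. Filled points passed an adjusted p of 0.05 and 1.5-fold (dotted lines). The filled points are Ppp1r3c at 1.66, Gbe1 at -0.83 and Ugp2 at -0.85, all constant.

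Whether the responses to the 2 patterns differ was tested directly. By edgeR 0 of the 7 members were called, where 0.0284% of all genes were. An unadjusted p below 0.05 was held by 4 members and by 1749 of the 14092 genes. The lowest adjusted p was that of Gbe1, at -0.95 ± 0.21 (adjusted p = 0.0756), which passed without CONS_VEH replicate 1 (adjusted p = 0.0252) or PULS_CORT replicate 1 (adjusted p = 0.03). Pygl followed at -0.66 ± 0.19 (adjusted p = 0.148), Pgm1 at -0.47 ± 0.18 (adjusted p = 0.294) and Ppp1r3c at 1.20 ± 0.48 (adjusted p = 0.304). DESeq2 called 2 of the 7, Gbe1 (adjusted p = 0.00154) and Pygl (adjusted p = 0.0179), and 229 genes in all against 4 by edgeR, so this comparison depends on the tool. The vehicles did not separate the members. Between CONS_VEH and PULS_VEH 0 of the 7 were called by edgeR and by DESeq2, and 0% of all genes were called by edgeR. An unadjusted p below 0.05 was held by 1 member (Pygl, 0.28 on the log2 scale, adjusted p = 0.543) and by 1286 of the 14092 genes.

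Over the 12 libraries, Pygl, Gbe1 and Pgm1 varied alike, with Pearson r of log2(CPM + 1) of 0.80 for Pygl and Gbe1, 0.79 for Pygl and Pgm1 and 0.70 for Gbe1 and Pgm1. Ppp1r3c ran opposite to Gys2 (r = -0.77) and Ppp1r3b opposite to Ugp2 (r = -0.73). The 12 points share 4 groups, so these values describe the libraries and carry no test.

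The chromatin mark of transcribing polymerase, RNA polymerase II phosphorylated at serine 2 of its tail (pSer2 Pol2), was measured within 10 kb of each start. Values are on a log2 scale, on which a region with few tags is shrunk to its average over libraries. Ppp1r3c was called higher at CONS_140 than in VEH and Ugp2 lower at PEAK_140 than in VEH, and no other member was called in any of the 9 comparisons. For PEAK_140 against VEH, 3 of the 18 regions were called lower, all of Ugp2 (2 intervals), where 0.989% of the 38315 regions tested were called, 0.624% lower. For CONS_140 against VEH, 2 of the 18 were called higher, both the same Ppp1r3c interval, where 0.788% of all regions were called, 0.592% higher. Over all regions the median log2 difference was 0.15 for CONS_140 against VEH and -0.05 for PEAK_140 against VEH, and over the 18 it was 0.13 and -0.48.

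**Figure D3:**
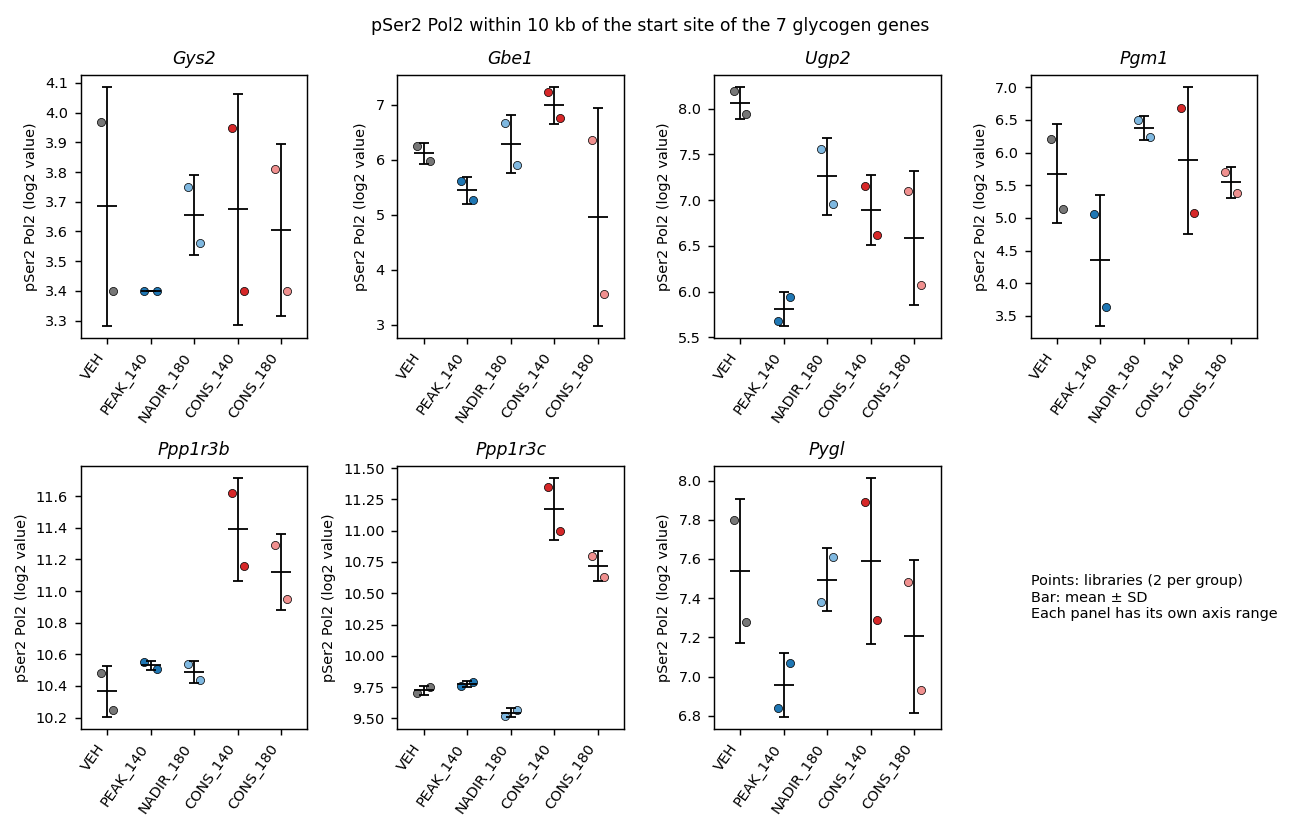
pSer2 Pol2 log2 value of each of the 7 glycogen genes within 10 kb of its start, in VEH, PEAK_140, NADIR_180, CONS_140 and CONS_180. Points are the 2 libraries of a group, bars the mean ± SD, and each panel has its own axis range. Ppp1r3c lies at 10.63 to 11.35 in the constant groups and at 9.52 to 9.79 in the others, and Ugp2 lies at 5.68 and 5.94 at PEAK_140 against 7.94 and 8.19 in VEH.

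The Ppp1r3c interval (rn6 chr1:255371810-255376833, minus strand) had log2 values of 11.35 and 11 at CONS_140 and 10.80 and 10.63 at CONS_180. They were 9.70 and 9.75 in VEH, 9.76 and 9.79 at PEAK_140, and 9.52 and 9.57 at NADIR_180. All 4 constant libraries were higher than all 6 others, and the pulsatile libraries lay close to the vehicle. The interval rose 2.74-fold at CONS_140 over VEH (1.45 ± 0.25 SE, adjusted p = 0.0228, n = 2 per group). The call was lost without any 1 of the VEH, NADIR_180 or CONS_180 libraries (adjusted p 0.0603 to 0.12). With 1 chromatin library left out its group holds 1 library, which is assumed to vary like the other groups, so that a call gained in this way has no replicate of its own. At CONS_180 the difference from VEH was 0.99 ± 0.25 (adjusted p = 0.317), which passed without either CONS_140 library (adjusted p = 0.0347 and 0.0356). PEAK_140 lay 1.40 ± 0.25 below CONS_140 (adjusted p = 0.075), which passed with the replicate number as a block (adjusted p = 0.0359), and CONS_180 lay 1.17 ± 0.25 above NADIR_180 (adjusted p = 0.247). Leaving out either CONS_140 library also brought these under the threshold (adjusted p 6.1e-05 to 0.0338).

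The longer Ppp1r3b interval (rn6 chr16:60417474-60427474, minus strand) also had its highest values in the constant groups. Its log2 values were 11.62 and 11.16 at CONS_140, 11.29 and 10.95 at CONS_180, and 10.48 and 10.25 in VEH. They were 10.55 and 10.51 at PEAK_140 and 10.54 and 10.44 at NADIR_180, below all 4 constant libraries. The difference of CONS_140 from VEH was 1.03 ± 0.26 (2.04-fold, adjusted p = 0.157) and did not pass the test. It passed after each library was centred on its median (0.88, adjusted p = 0.023), and without CONS_140 replicate 2 (adjusted p = 0.00248), which leaves 1 library at CONS_140. At CONS_180 the difference was 0.76 ± 0.26 (adjusted p = 0.84). The shorter Ppp1r3b interval (rn6 chr16:60418423-60426561) lies inside the longer and shares its tags.

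Ugp2 (rn6 chr14:106238539-106248539, minus strand) went the other way. Its log2 values were 8.19 and 7.94 in VEH, 5.68 and 5.94 at PEAK_140, and 7.56 and 6.96 at NADIR_180. They were 7.16 and 6.62 at CONS_140 and 7.10 and 6.07 at CONS_180. All 8 CORT libraries lay below both VEH libraries, and the PEAK_140 pair was lowest. At PEAK_140 the interval fell 4.77-fold below VEH (-2.25 ± 0.41, adjusted p = 0.0255), and a further Ugp2 interval (rn6 chr14:106224247-106234247) gave -2.13 (adjusted p = 0.034). The call was lost in 8 of the 10 fits that left out 1 library, the CONS_180 libraries being the exceptions, with adjusted p of 0.119 to 0.291 where it was lost. The differences from VEH were -1.48 ± 0.41 at CONS_180 (adjusted p = 0.437) and -1.18 ± 0.41 at CONS_140 (adjusted p = 0.48), and PEAK_140 lay -1.45 ± 0.41 from NADIR_180 (adjusted p = 0.309).

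The remaining members were not called. Pgm1 (rn6 chr5:118743632-118753632, plus strand) had log2 values of 5.06 and 3.64 at PEAK_140, 6.50 and 6.24 at NADIR_180 and 6.21 and 5.14 in VEH, and of 6.68 and 5.08 at CONS_140 and 5.71 and 5.38 at CONS_180. Both PEAK_140 libraries lay below all others. PEAK_140 differed from NADIR_180 by -2.02 ± 0.59 (adjusted p = 0.336), and from CONS_140 by -1.53 ± 0.59 (adjusted p = 0.436, and 0.0492 without CONS_140 replicate 2). The Gbe1 interval at the 5′ start (rn6 chr11:7210209-7220209, plus strand) had 6.25 and 5.98 in VEH, 5.62 and 5.27 at PEAK_140 and 6.66 and 5.91 at NADIR_180. It had 7.23 and 6.75 at CONS_140 but 6.36 and 3.56 at CONS_180, a gap between replicates wider than any between group means, and CONS_140 differed from CONS_180 by 2.03 ± 0.69 (adjusted p = 0.629). Transcript starts further into Gbe1 (rn6 chr11:7265828-7275828 and chr11:7422272-7432272) ranged from 3.71 to 4.78.

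Pygl (rn6 chr6:92633847-92643847, minus strand) ranged from 6.84 to 7.89 over the 10 libraries, with VEH at 7.8 and 7.28, PEAK_140 at 6.84 and 7.07, NADIR_180 at 7.38 and 7.61, CONS_140 at 7.89 and 7.29 and CONS_180 at 7.48 and 6.93. PEAK_140 was the lowest on average, by -0.58 ± 0.36 from VEH (adjusted p = 0.999). Gys2 (rn6 chr4:176669815-176679815, minus strand) ranged from 3.40 to 3.97 and stood at 3.40 in 5 of the 10 libraries, the lowest value the region took. Its differences from VEH were -0.29 to -0.01 ± 0.31, and at this low signal no difference was detectable.

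Counts of 0 for the members in the other polymerase comparisons came from limma. Against VEH, 0 of the 18 regions were called at NADIR_180 (0 with an unadjusted p below 0.05, and 0.00522% of all regions called) and 0 at CONS_180 (8 unadjusted, 0.214% called). For PEAK_140 against NADIR_180 the count was 0 (5 unadjusted, 0.48% called), for CONS_140 against CONS_180 0 (2 unadjusted, 0% called) and for CONS_180 against NADIR_180 0 (5 unadjusted, 0.17% called). PEAK_140 against CONS_140 had 0 called and 12 unadjusted, with 0.0261% of all regions called and a median over all regions of -0.26. The difference of the time effects, (PEAK_140 - NADIR_180) - (CONS_140 - CONS_180), had 0 called and 7 unadjusted, with 0.0574% called and a median of -0.30 over all regions. In the order given here, 555, 1125, 2098, 1134, 876, 3336 and 2455 of the 38315 regions tested had an unadjusted p below 0.05. The 18 regions cover 11 distinct intervals, so the unadjusted member counts hold repeats of the same tags.

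GR regions are the merged peaks that the authors called in these same libraries, so a higher value than VEH is in part fixed by how regions were chosen, and over all 3981 regions the median log2 difference from VEH was 4.17 at PEAK_140, 3.38 at CONS_140, 3.46 at CONS_180 and 0.84 at NADIR_180. The values are log2, and a value below 0 stands for less than 1 normalised tag, so that differences against VEH are fitted values and not bounds. The 2 phosphatase genes held 9 of the 10 regions. Of the 10, 9 overlapped a peak called at CONS_140, 6 at CONS_180, 5 at PEAK_140, 0 at NADIR_180 and 1 in VEH. The share of all 3981 regions with a peak in each group was not counted, so these counts only describe the 10 regions. Depth differed too, with 6715803 and 3663062 tags at CONS_140 and 2568317 and 2051977 at PEAK_140. Its part in the peak counts was not tested. By limma, 7 of the 10 were called against VEH at PEAK_140 (6 higher and 1 lower, where 80.5% of all regions were called, 78.6% higher), 2 at NADIR_180 (both higher, where 7.79% were called, 7.44% higher), 6 at CONS_140 (all higher, where 65.1% were called, 64.7% higher) and 8 at CONS_180 (7 higher and 1 lower, where 68.2% were called, 67.9% higher). The shares at PEAK_140, CONS_140 and CONS_180 lay near those of all regions. Median differences over the 10 were 3.78, 1.62, 4.15 and 4.63 in the same order of groups.

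**Figure D4:**
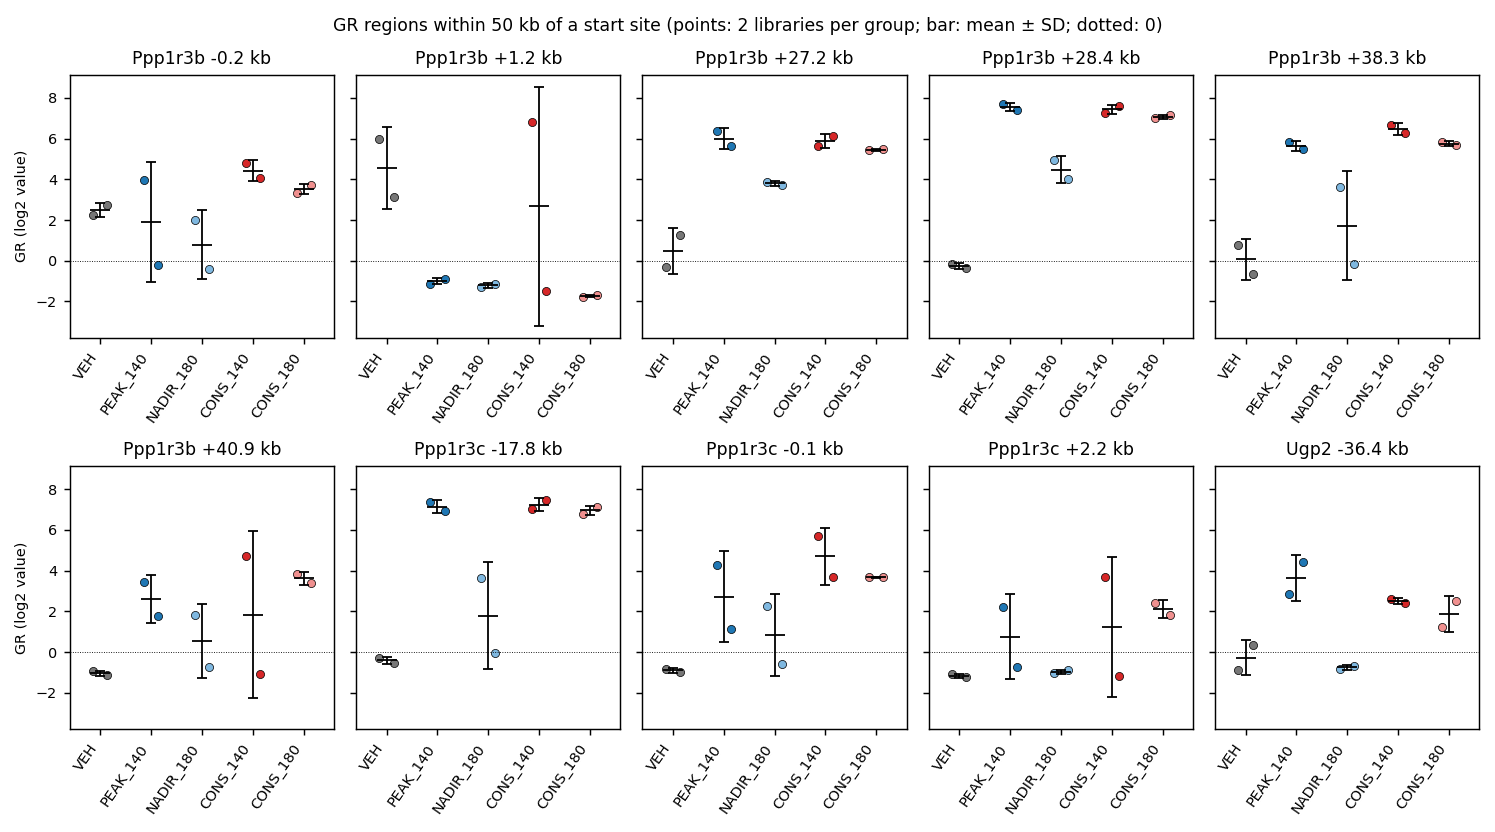
GR log2 value of the 10 regions within 50 kb of a start of Ppp1r3b, Ppp1r3c or Ugp2, by group, with the distance of the region centre from the start in kb above each panel (minus is upstream). Points are the 2 libraries of a group and bars the mean ± SD. The regions at +28.4 kb of Ppp1r3b and -17.8 kb of Ppp1r3c lie at 6.80 or more in all 6 PEAK_140 and constant libraries and below 0 in VEH.

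Near Ppp1r3c, the region 17.8 kb upstream (rn6 chr1:255394304-255394929, intergenic) was the strongest. Its log2 values were -0.31 and -0.52 in VEH, 7.37 and 6.92 at PEAK_140 and 3.64 and -0.05 at NADIR_180. They were 7.01 and 7.49 at CONS_140 and 6.80 and 7.13 at CONS_180. PEAK_140 and the constant groups stood level with each other, far above VEH, and the NADIR_180 replicates were far apart. NADIR_180 differed from VEH by 2.21 ± 0.97 (adjusted p = 0.296), and by 4.05 (adjusted p = 0.00165) without NADIR_180 replicate 2, a value that rests on 1 NADIR_180 library. Differences from VEH were 7.56 at PEAK_140, 7.67 at CONS_140 and 7.38 at CONS_180 (SE 0.97 each, adjusted p = 0.000195, 0.000239 and 0.000342), calls that were kept with any 1 library left out. After median-centring of the libraries they were 2.95, 3.56 and 3.32 and still called. PEAK_140 exceeded NADIR_180 by 5.35 ± 0.97 (adjusted p = 0.00195) and CONS_180 exceeded it by 5.17 ± 0.97 (adjusted p = 0.00379). These were 1.92 (adjusted p = 0.137) and 2.29 (adjusted p = 0.144) after centring.

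The region at the Ppp1r3c promoter, centred 81 b upstream of the start (rn6 chr1:255376581-255377247), had log2 values of -0.82 and -0.99 in VEH, 4.29 and 1.13 at PEAK_140 and 2.28 and -0.59 at NADIR_180. It had 5.69 and 3.71 at CONS_140 and 3.67 and 3.70 at CONS_180. A peak was called there in the constant groups only. All 6 libraries of PEAK_140 and the constant groups lay above VEH, by 3.61 at PEAK_140 (adjusted p = 0.0246), 5.61 at CONS_140 (adjusted p = 0.00406) and 4.59 at CONS_180 (adjusted p = 0.0109), with an SE of 1.25 each. The PEAK_140 call was lost without PEAK_140 replicate 1 or either VEH library (adjusted p 0.0702 to 0.2), and the CONS_180 call without VEH replicate 2 or either CONS_180 library (adjusted p 0.0503 to 0.0553). After centring none of the 3 passed the test, at -1.0 for PEAK_140 (adjusted p = 0.558), 1.5 for CONS_140 (adjusted p = 0.282) and 0.53 for CONS_180 (adjusted p = 0.779). CONS_140 exceeded PEAK_140 by 2.00 ± 1.25 without passing the test (adjusted p = 0.486).

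In the intron of Ppp1r3c, 2.2 kb downstream of the start (rn6 chr1:255374377-255374904), log2 values were -1.09 and -1.24 in VEH, 2.23 and -0.72 at PEAK_140, -1.04 and -0.90 at NADIR_180, 3.68 and -1.19 at CONS_140 and 2.43 and 1.82 at CONS_180. The CONS_180 pair was above VEH and the CONS_140 pair was split. No comparison was called for it, and CONS_180 exceeded VEH by 3.29 ± 1.52 (adjusted p = 0.0815).

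Near Ppp1r3b, 4 regions lay 27.2 to 40.9 kb downstream of the closer start, in intergenic DNA, and the authors' table gives AABR07026037.1 as their nearest gene, 4696 to 7737 b away. The region at 28.4 kb (rn6 chr16:60397776-60398451) had log2 values of -0.16 and -0.37 in VEH, 7.68 and 7.43 at PEAK_140 and 4.94 and 4.02 at NADIR_180. It had 7.28 and 7.60 at CONS_140 and 7.01 and 7.15 at CONS_180. This was the region with the least spread between replicates, and NADIR_180 lay between VEH and the rest. Differences from VEH were 7.82 at PEAK_140, 7.71 at CONS_140, 7.34 at CONS_180 and 4.75 at NADIR_180 (SE 0.39 each, adjusted p = 5.9e-06, 6.7e-06, 1.0e-05 and 0.000514), and each was called with any 1 library left out. After centring they were 3.20, 3.60, 3.28 and 3.57, with NADIR_180 no longer called (adjusted p = 0.0626). PEAK_140 exceeded NADIR_180 by 3.07 ± 0.39 (adjusted p = 0.000488), but by -0.37 (adjusted p = 0.795) after centring. This region thus dropped at the trough by about as much as the median region, which was 3.20 lower at NADIR_180 than at PEAK_140.

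The region at 27.2 kb (rn6 chr16:60399126-60399653) had log2 values of -0.33 and 1.26 in VEH, 6.38 and 5.63 at PEAK_140, 3.89 and 3.73 at NADIR_180, 5.65 and 6.14 at CONS_140 and 5.42 and 5.48 at CONS_180. It followed the order of the region at 28.4 kb. Differences from VEH were 5.54 at PEAK_140 (adjusted p = 7.6e-05), 3.35 at NADIR_180 (adjusted p = 0.00866), 5.43 at CONS_140 and 4.99 at CONS_180 (SE 0.58 each). After centring the 4 differences were 0.93, 2.17, 1.32 and 0.93, and none passed the test (adjusted p 0.261 to 0.514). PEAK_140 exceeded NADIR_180 by 2.20 ± 0.58 (adjusted p = 0.0101), with -1.24 after centring, and the call was lost without PEAK_140 replicate 1 (adjusted p = 0.0774).

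The region at 38.3 kb (rn6 chr16:60387978-60388603) had log2 values of 0.77 and -0.64 in VEH, 5.82 and 5.47 at PEAK_140, 3.63 and -0.18 at NADIR_180, 6.67 and 6.27 at CONS_140 and 5.84 and 5.67 at CONS_180. Its NADIR_180 replicates were split in the same way as at the distal Ppp1r3c region. Differences from VEH were 5.57, 6.4 and 5.69 at PEAK_140, CONS_140 and CONS_180 (SE 1.06 each, adjusted p = 0.00144, 0.000926 and 0.00181), and 0.96, 2.29 and 1.63 after centring, with none called. The region at 40.9 kb (rn6 chr16:60385277-60386083) had -0.95 and -1.13 in VEH, 3.45 and 1.79 at PEAK_140, 1.82 and -0.73 at NADIR_180, 4.74 and -1.07 at CONS_140 and 3.86 and 3.40 at CONS_180. It was called at CONS_180 (4.67 ± 1.68, adjusted p = 0.034), and that call was lost without any 1 of the VEH, PEAK_140 or CONS_180 libraries (adjusted p 0.0506 to 0.132).

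At the Ppp1r3b promoter, 177 b upstream of the start (rn6 chr16:60427339-60427964), VEH already had log2 values of 2.25 and 2.72. The others were 3.99 and -0.20 at PEAK_140, 1.98 and -0.41 at NADIR_180, 4.78 and 4.06 at CONS_140 and 3.34 and 3.71 at CONS_180. The constant groups were above VEH in all 4 libraries, and no comparison was called (CONS_140 against VEH 1.93 ± 1.28, adjusted p = 0.21). In the Ppp1r3b intron, 1.2 kb downstream of the start (rn6 chr16:60425061-60425588), VEH had 5.97 and 3.12 and CONS_140 had 6.84 and -1.48, while the other 6 libraries lay between -1.76 and -0.90. It was the region of the 10 with a peak called in VEH. It was called lower than VEH at PEAK_140 (-5.56 ± 2.20, adjusted p = 0.0415) and CONS_180 (-6.27 ± 2.20, adjusted p = 0.0312), where 1.83% and 0.301% of all regions were called lower. The PEAK_140 call was lost without any 1 of the VEH, PEAK_140, NADIR_180 or CONS_180 libraries (adjusted p 0.053 to 0.203). The CONS_180 call was lost without VEH replicate 1 or any 1 of the PEAK_140, NADIR_180 or CONS_180 libraries (adjusted p 0.0518 to 0.16). At NADIR_180 the difference of -5.75 (adjusted p = 0.198) was called without either CONS_140 library (adjusted p = 0.0122 and 0.0114).

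Ugp2 had a region 36.4 kb upstream of its start (rn6 chr14:106284709-106285104, intergenic). Its log2 values were -0.89 and 0.34 in VEH, 2.83 and 4.44 at PEAK_140, -0.83 and -0.68 at NADIR_180, 2.62 and 2.40 at CONS_140 and 1.23 and 2.51 at CONS_180. PEAK_140 was highest, the constant groups next, and NADIR_180 stood with VEH. Differences from VEH were 3.91 ± 0.83 at PEAK_140 (adjusted p = 0.00245), 2.79 at CONS_140 (adjusted p = 0.0157) and 2.15 at CONS_180 (adjusted p = 0.0442). After centring these were -0.71, -1.32 and -1.92, so the region gained less than the median GR region, by an amount that did not pass the test (adjusted p 0.259 to 0.731). The CONS_140 call was lost without VEH replicate 1 or CONS_140 replicate 1, and the CONS_180 call without either VEH library, either NADIR_180 library or CONS_180 replicate 2 (adjusted p 0.0571 to 0.234).

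Between the groups with CORT, 5 of the 10 regions were called higher at PEAK_140 than at NADIR_180, where 69.3% of all regions were called (68.8% higher), and the same number higher at CONS_180 than at NADIR_180, where 49.6% were called. Between CONS_140 and CONS_180, 0 of the 10 were called by limma (0 with an unadjusted p below 0.05), where 0% of all regions were called. Between PEAK_140 and CONS_140, 0 were called (0 unadjusted), where 0.0502% of all regions were called. The drop from peak to trough exceeded the change between the matched constant times at 3 of the 10 regions, where 44% of all regions were called (43.6% higher). These 3 were the regions at -17.8 kb of Ppp1r3c, +28.4 kb of Ppp1r3b and -36.4 kb of Ugp2.

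The 50 kb limit decided what was counted. Within 20 kb there were 5 regions, of Ppp1r3b and Ppp1r3c, and within 100 kb 13 regions of 4 genes. The member region nearest inside the limit was that at 40.9 kb of Ppp1r3b. Just outside, 51.7 kb upstream of Pygl (rn6 chr6:92695263-92695790), log2 values were -0.79 and -0.95 in VEH, 4.09 and 3.02 at PEAK_140, 1.42 and -0.57 at NADIR_180, 3.93 and 3.63 at CONS_140 and 2.36 and 3.84 at CONS_180. A further region lay 54.7 kb upstream of Pygl.

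Side by side, the readouts of Ppp1r3c were high in the constant groups, with RNA 3.16-fold above constant vehicle at 180 min. At CONS_140 its pSer2 Pol2 was 2.74-fold above VEH, which was pulsatile vehicle. That call was lost in 6 of the 10 fits that left out 1 library. At CONS_180, the time of the RNA, its pSer2 Pol2 was 1.99-fold above VEH and did not pass the test (adjusted p = 0.317). At PEAK_140 its pSer2 Pol2 differed from VEH by 0.05 ± 0.25 (adjusted p = 0.999), while GR at -17.8 kb differed by 7.56. RNA was taken at 180 min only, so no RNA value stands beside the 140 min groups. Ppp1r3b also had its highest pSer2 Pol2 values in the constant groups, where no difference from VEH passed the test, and RNA means of 74.8 ± 24.1 CPM (SD, n = 3) in PULS_CORT and 43.6 ± 7.89 CPM in CONS_CORT. For Ugp2 the calls were lower pSer2 Pol2 at PEAK_140, lower RNA with constant CORT and, at its GR region, higher values at PEAK_140, CONS_140 and CONS_180. Each was lost in some of the fits that left out 1 library, except GR at PEAK_140, and the GR differences turned to -0.71, -1.32 and -1.92 after centring. Gbe1, lower in CONS_CORT RNA, had no GR region within 50 kb and no called pSer2 Pol2 region.

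Of 36 other genes of glycogen handling, 27 were tested in RNA and 32 in pSer2 Pol2. The RNA of 10 other enzymes and granule proteins, among them the debranching enzyme and glycogenin genes, and of 3 other phosphatase subunits gave 0 calls in each of the 5 comparisons by edgeR and by DESeq2, with 0 to 2 and 0 to 1 genes at an unadjusted p below 0.05. Among 10 kinases that act on the pathway, Prkaa1, a catalytic subunit of AMP-activated kinase, rose 1.61-fold with pulsatile CORT (adjusted p = 0.0127), at 25 to 26.6 CPM against 15.8 to 16.2 CPM. Prkaa2, the other catalytic subunit, rose 1.67-fold with constant CORT (adjusted p = 0.0255), at 209 to 262 CPM against 119 to 154 CPM. The PULS_VEH libraries lay at 130 to 259 CPM, with replicate 2 at 259 CPM inside the range of CONS_CORT. Prkaca, the catalytic subunit of protein kinase A, which drives breakdown of glycogen, fell 1.53-fold with constant CORT (adjusted p = 0.00377) and was 1.52-fold lower in CONS_CORT than in PULS_CORT (adjusted p = 0.0363), at 34.7 to 47.3 CPM in CONS_CORT, 57.2 to 70.3 CPM in CONS_VEH and 62.0 to 64.0 CPM in PULS_CORT. Of 4 genes of glucose 6-phosphate supply and release, Slc37a4, its transporter into the endoplasmic reticulum, rose 1.52-fold with pulsatile CORT (adjusted p = 0.0313), at 115 to 135 CPM against 69.5 to 86.0 CPM. In CONS_CORT Slc37a4 stood at 98.4 to 148 CPM, a range that spans PULS_CORT, and in CONS_VEH at 85.1 to 110 CPM. It was not called between the CORT patterns. In all, 2 of 27 were called with pulsatile and 2 of 27 with constant CORT, where 4.23% and 9.2% of all genes were called. Median log2 differences for pulsatile and constant CORT were -0.07 and -0.10 over the enzymes, 0.04 and 0.04 over the subunits, -0.06 and 0.09 over the kinases and 0.54 and -0.01 over the glucose 6-phosphate genes, against -0.01 and -0.01 over all genes. In pSer2 Pol2, 0 of the 32 were called by limma in any comparison, with 2 to 7 at an unadjusted p below 0.05.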

How the data were processed

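The series held 42 libraries: GR and pSer2 Pol2 chromatin immunoprecipitation (10 each), 10 inputs, which have no values of their own here because they had been subtracted, and 12 of stranded total RNA. For chromatin, the authors trimmed reads, aligned them to rn6, removed duplicates and deposited log2 values per region from HOMER 4.9.1, with input subtracted and a regularised-log kind of scaling. For GR the file header names normalisation to total tags and the methods name tags within binding regions. pSer2 Pol2 regions run from the start of each gene or transcript for at most 10 kb. For RNA, the authors deposited raw counts of exonic reads per Ensembl gene (featureCounts 1.6.2). Deposited peak flags per group were used to say where a peak was called. Deposited tables and columns of the authors' own comparisons hold fold changes and p-values and were not used. No column of per-sample values lacked a sample (0 columns).

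RNA was tested with the quasi-likelihood test of edgeR 4.0.16 (R 4.3.3) over all 12 libraries, with TMM scaling and more than 10 reads over all libraries required (14092 genes). CPM use the same scaling, and SE was the log2 fold change divided by the square root of F. Chromatin values were tested with limma 3.58.1, with a variance trend, over all 10 libraries of an antibody and all regions with tags. P-values were adjusted by Benjamini-Hochberg over all genes or regions, and a call needed an adjusted p below 0.05 and more than 1.5-fold. The VEH libraries carry no replicate number and were taken as 1 group. Tables and figures were made with pandas 2.3.3 and matplotlib 3.10.9. The fits were tested on simulated data.

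Alternatives were DESeq2 1.42.0, other scalings and filters, libraries of the comparison only, no variance trend, a replicate block, each library left out, and other GR windows. Same-numbered pSer2 Pol2 libraries deviated together in all 6 pairs of numbered groups (r 0.155 to 0.553), with VEH outside the check, so the numbers were taken to pair them. The labels name no shared batch. Library numbers in the titles follow the groups in part. For GR, those of the pulsatile CORT libraries run apart from those of VEH and constant CORT. The same holds for pSer2 Pol2, except for PEAK_140 replicate 2. In RNA, the PULS_VEH numbers run apart from those of PULS_CORT. What these numbers stand for is not stated, and their part in the differences was not tested. The SE and p-values reported for pSer2 Pol2 come from fits without the replicate block, so comparisons between its CORT groups do not use this pairing. The blocked value stands beside the 1 pSer2 Pol2 result it changes. All 7 members were described, and other genes were named where called within lists of glycogen genes or as known glucocorticoid targets, cell markers or the genes most alike. The members and lists were chosen with earlier results of these data known.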

Additional observations from a re-analysis of the deposited data

Results flagged for a closer look

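A difference between the infusion patterns was seen in GR binding at 3 of the 10 regions. The measure was the change from PEAK_140 to NADIR_180 set against the change from CONS_140 to CONS_180, tested as 1 term in limma. At the region 17.8 kb upstream of Ppp1r3c it was 5.07 ± 1.37 on the log2 scale (adjusted p = 0.021), with 7.37 and 6.92 at PEAK_140, 3.64 and -0.05 at NADIR_180, 7.01 and 7.49 at CONS_140 and 6.80 and 7.13 at CONS_180. The call was lost without either PEAK_140 library, either CONS_180 library or CONS_140 replicate 2 (adjusted p 0.0529 to 0.0785). At the region 28.4 kb downstream of Ppp1r3b it was 2.71 ± 0.55 (adjusted p = 0.00908), a call that was kept with any 1 of the 10 GR libraries left out. At the region 36.4 kb upstream of Ugp2 it was 3.75 ± 1.17 (adjusted p = 0.0324), and the call was lost without PEAK_140 replicate 2, either NADIR_180 library, CONS_140 replicate 2 or CONS_180 replicate 2 (adjusted p 0.0557 to 0.0921). Over all 3981 regions the median of this difference was 3.11 and 44% were called. After median-centring, which sets that median aside, the values were 1.68 (adjusted p = 0.472) for Ppp1r3c, -0.68 (adjusted p = 0.767) for Ppp1r3b and 0.36 (adjusted p = 0.93) for Ugp2. With 2 or 3 libraries a group, single libraries could not be tested as standing apart.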

How the results depend on the processing

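The limits are 2 chromatin libraries per group, 3 RNA libraries per group, and few reads for Ppp1r3b and Ppp1r3c in RNA and for Gys2 in pSer2 Pol2. Counts are of members called, with the reported count first. The share of all genes or regions called under each alternative setting is not set beside them in this section. Whether a member count moved more than the count over all genes or regions was therefore not tested. In RNA, CORT against vehicle for PULS (0) was 1 with no filter on reads and 1 with no fold threshold, and for CONS (3) it was 6 with no fold threshold. The difference of the responses (0) was 2 by DESeq2 and 1 with no filter, and CONS_CORT against PULS_CORT (1) was 2 with no filter and 2 with only the libraries compared. In pSer2 Pol2 (18 regions), PEAK_140 against VEH (3) was 0 with no variance trend and 0 with only the libraries compared. CONS_140 against VEH (2) was 4 after median-centring, 5 after quantile normalization, 5 over the upper 50% of regions and 0 with only the libraries compared. CONS_180 against VEH (0) was 2, 1 and 4 after centring, quantile normalization and over the upper regions. PEAK_140 against CONS_140 (0) was 2 after centring, 2 after quantile normalization, 2 with no trend, 2 with the replicate block and 4 over the upper regions. CONS_180 against NADIR_180 (0) was 2 after centring, 2 with no trend and 2 over the upper regions.

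In GR (10 regions), counts after centring and after quantile normalization, both of which remove the median shift by construction, were 4 and 4 for PEAK_140 against VEH (7), 2 and 3 for CONS_140 against VEH (6), 3 and 5 for CONS_180 against VEH (8), 0 and 1 for PEAK_140 against NADIR_180 (5), 0 and 1 for CONS_180 against NADIR_180 (5), and 0 and 0 for the difference of the time effects (3). NADIR_180 against VEH (2) was 0 after centring and 0 with only the libraries compared, and CONS_180 against VEH was 5 over the upper regions. A 20 kb window held 5 regions in place of 10. Directions turned in GR only. After centring the differences from VEH were -1.0 for the Ppp1r3c promoter at PEAK_140 and -0.71, -1.32 and -1.92 for Ugp2 at PEAK_140, CONS_140 and CONS_180, with -0.26 for Ugp2 between CONS_180 and NADIR_180. PEAK_140 and CONS_180 against NADIR_180 were -0.37 and -0.29 for the region at 28.4 kb of Ppp1r3b and -1.24 and -1.24 for that at 27.2 kb, and the difference of the time effects at 28.4 kb was -0.68. After quantile normalization Ugp2 gave -0.08, -0.54 and -1.1, and the region at 27.2 kb gave -0.58 and -0.45. The cause of the other changes was not tested.

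With 1 library left out, RNA counts ran from 0 to 0 (PULS), 2 to 3 (CONS), 0 to 1 (difference of the responses), 0 to 1 (CONS_CORT against PULS_CORT) and 0 to 0 (vehicles). Those of pSer2 Pol2 ran from 0 to 2 (PEAK_140), 0 to 0 (NADIR_180), 0 to 5 (CONS_140) and 0 to 2 (CONS_180) against VEH, 0 to 0 (PEAK_140 against NADIR_180), 0 to 2 (CONS_140 against CONS_180), 0 to 8 (PEAK_140 against CONS_140), 0 to 2 (CONS_180 against NADIR_180) and 0 to 3 (time effects). Those of GR ran from 5 to 8, 2 to 4, 5 to 8 and 4 to 9 against VEH in the same order, then 3 to 6, 0 to 1, 0 to 0, 2 to 6 and 1 to 5. Same-numbered RNA and GR libraries did not deviate together (r -0.101 to 0.148 and -0.027 to 0.072). With the replicate block there, Ugp2 RNA under CONS (-0.83, adjusted p = 0.0582) and CONS_180 against NADIR_180 at 27.2 kb of Ppp1r3b (1.64, adjusted p = 0.0545) were no longer called. The block changed no other member call.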

Other observations

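The genes whose RNA ran most like each member over the 12 RNA libraries are given as a description, among 7303 genes with a mean of at least 10 CPM, by Pearson r of log2(CPM + 1). Gys2 ran most like Samd5 (r = 0.941) and RGD1562392 (r = 0.939). Gbe1 ran most like Slc23a1, a vitamin C transporter (r = 0.943), and Gpam, which starts glycerolipid synthesis (r = 0.921). Ugp2 ran most like Aox1, an aldehyde oxidase (r = 0.927), and Dpy19l1 (r = 0.901). Pygl ran most like AABR07026291.1 (r = 0.93) and Srebf1, a regulator of lipid synthesis genes (r = 0.917). Pgm1 ran most like Lrp5 (r = 0.956) and Cd164 (r = 0.903). Ppp1r3c ran most like Otulin (r = 0.936) and Ppargc1b (r = 0.93), and Ppp1r3b most like Mrpl12 (r = 0.948) and Dgat2, which makes triglyceride (r = 0.936). The libraries share 4 groups and their depths differ, so these values carry no test.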
